A study of Caenorhabditis elegans with 6 samples.

Results

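The mitochondrial genome of Caenorhabditis elegans holds 36 genes in the WBcel235 annotation of Ensembl release 115, of 46934 gene identifiers in the count tables. They are 12 protein-coding, 2 rRNA and 22 tRNA genes, taken for their place on that genome and for nothing measured here. RNA was sequenced from distal gonad arms of young adults in 6 libraries, 3 from wild-type animals and 3 from animals with the allele tm1276 of sin-3, labelled sin-3(tm1276). The tissue is labelled germline. Each sample pooled 5 to 7 animals, 12 h past the larval stage L4, whose gonads were cut at the elbow to keep the distal part, so germ cells and the somatic gonad around them were measured together. Libraries of stranded total RNA were depleted of ribosomal RNA and read from one end for 50 bases. Whether replicates were separate cultures is not stated, so p-values refer to the spread among these libraries, and that spread may be technical.

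SIN-3 holds together a nuclear complex that removes acetyl groups from histones. Mitochondria keep a small circular genome whose protein-coding genes specify core subunits of the respiratory chain and of ATP synthase, while all other subunits are encoded in the nucleus and imported. In this animal all mitochondrial genes lie on one strand, are packed almost end to end and are transcribed together as long precursors, from which mRNAs, rRNAs and tRNAs are cut. Levels of the mature RNAs therefore depend on how many genomes are copied and transcribed and on how long each RNA lasts. The mitochondrial genome is known to multiply as germ cells grow and form oocytes.

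Gene-assigned reads ranged from 24491014 to 30634455 per library. The targeted gene sin-3 stood at 366.5, 358.2 and 369.1 CPM in wild type and at 179.3, 175.4 and 183.9 CPM in the mutant (replicates 1, 2 and 3, here and below). Its log2 fold change was -1.02 ± 0.033 (SE), so labels and counts point the same way. CPM are a gene's reads per 1000000 reads of its library, here scaled by the trimmed mean of M values (TMM), which sets libraries on a common scale from the bulk of their genes. A gene counts as called at an edgeR adjusted p under 0.05. Calls on the marker genes below stand beside 31.3% higher and 30.7% lower over all 9787 genes tested, or 45.4% and 19.1% by library totals. The 8 germline markers, of which 1 was called higher and 2 lower, or 4 and 0 with libraries scaled by their totals, had summed levels of 2802 to 3001 CPM in wild type and 2793 to 2820 CPM in the mutant, whereas 6 sperm genes summed to at most 0.456 CPM in any library, with msp-10 and msp-56 at 0. The 10 markers of oocytes in the proximal arm summed to 8497 to 8835 CPM in wild type and 6741 to 7302 CPM in the mutant, with 6 called lower and 2 higher, or 5 and 4 by library totals. The 9 matched markers of the somatic gonad summed to 64.8 to 83.1 CPM in wild type and 120.0 to 135.6 CPM in the mutant. Of these sums inx-8 alone held 52.5 and 77.5 CPM on average. Among 6 tested genes 5 were called higher and the troponin gene tnt-4 lower, and ehn-3 was at 0. Libraries of tnt-4 had 0.68, 1.60 and 1.44 CPM in wild type and 0.15, 0.063 and 0.14 CPM in the mutant. This gene passed the filter on low counts only through wild type, so its difference is in part fixed by the filter.

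Messenger RNAs of the mitochondrial genome were about doubled in sin-3(tm1276) distal gonads, while its ribosomal RNAs showed no called change. Of the 12 protein-coding genes, 10 were called higher and 0 lower by the edgeR quasi-likelihood test at an adjusted p under 0.05, with folds from 1.80 to 4.11 among those called, and 11 had all mutant values above all wild-type values. Over all 9787 genes tested, 31.3% were called higher, 30.7% lower and 62% in either direction, and 67.8% had genotypes that did not overlap. The median log2 fold change of the 12 genes was 1.15, against 0.028 over all genes tested. Rises of this size were less common, since 8.44% of tested genes were called higher with a log2 fold change of 1 or more. Scaling by library totals moved the median of all genes to 0.19, and that of the 12 genes to 1.31, and on that scale 45.4% of all genes were called higher and 19.1% lower.

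As a share of each library the change was visible in every sample. With all rRNA genes left out of the library totals, the 12 genes held 1.68%, 1.39% and 1.65% of counts in wild type and 2.80%, 3.74% and 3.07% in the mutant. Every mutant library thus lay above every wild-type library, at 3.2% ± 0.49 against 1.57% ± 0.16 (SD, n = 3). The two-sided exact permutation p was 0.1, the smallest that 3 libraries against 3 allow. The ratio of the mean shares was 2.04, and 2.07 with rRNA genes kept in the totals. On the TMM scale the summed proximal oocyte markers were lower and the summed somatic gonad markers higher in the mutant libraries, as given above, and the part of either in these shares was not tested. In such bulk samples a change in the mix of cells and a change in RNA per cell cannot be told apart.

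**Figure D1:**
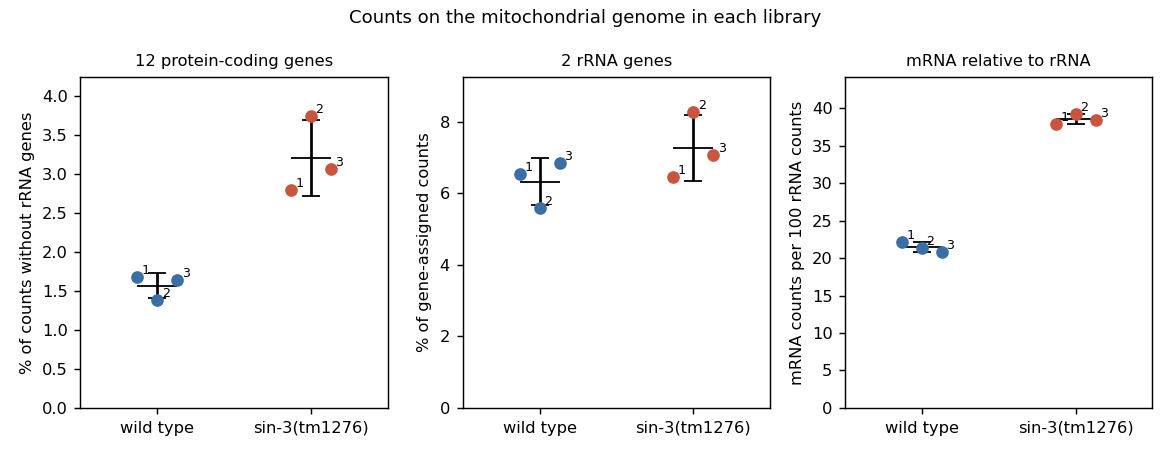
Share of counts on the 12 protein-coding genes (left, % of counts without rRNA genes), share on the 2 rRNA genes (middle, % of gene-assigned counts) and mRNA counts per 100 rRNA counts (right), for each library (points, numbered by replicate) with mean ± SD (n = 3). The genotypes separate in the left and right panels and overlap in the middle one, and the 3 libraries of a genotype lie closest together in the right panel, at 20.8 to 22.1 in wild type and 37.9 to 39.2 in the mutant.

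The 2 ribosomal RNAs of the mitochondrial ribosome held far more reads than its messages and overlapped between genotypes. The gene MTCE.7 (WBGene00014454, MtDNA 898 to 1593) stood at 42211, 36193 and 45143 CPM in wild type and at 35877, 47357 and 37496 CPM in the mutant. The gene MTCE.33 (WBGene00014472, MtDNA 10403 to 11354) stood at 27408, 23017 and 27112 CPM in wild type and at 24838, 32157 and 28484 CPM in the mutant. Mutant replicate 2 was the highest library for both and wild-type replicate 2 the lowest. Their log2 fold changes were -0.033 ± 0.15 and 0.14 ± 0.13 (SE), with edgeR adjusted p values of 0.865 and 0.388. Together they took 6.33% ± 0.66 of gene-assigned counts in wild type and 7.27% ± 0.92 in the mutant (SD, n = 3, two-sided exact permutation p = 0.3). Scaling by library totals turned the sign of MTCE.7, to 0.13, and leaving out both replicates 2 that of MTCE.33, to -0.047. The counts of both are what remained after rRNA depletion, whose efficiency in each library is not known. Nuclear rRNA held 6.86%, 8.36% and 6.79% of gene-assigned counts in wild type and 6.02%, 5.03% and 4.17% in the mutant, without overlap (two-sided exact permutation p = 0.1). The part of rRNA depletion in the mitochondrial rRNA values, and in the ratios to them given next, was not tested.

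Set against the ribosomal RNA of the same genome, the messages differed between genotypes with little spread between libraries. Wild-type libraries had 22.1, 21.4 and 20.8 mRNA counts per 100 mitochondrial rRNA counts, and mutant libraries 37.9, 39.2 and 38.4. The means were 21.4 ± 0.68 and 38.5 ± 0.66 (SD, n = 3), a ratio of 1.80 with an exact permutation p of 0.1, again the smallest possible. The ratio was 1.82 without COX1, the most counted of the 12 genes, 1.67 with MTCE.33 alone as the reference and 1.89 with MTCE.7 alone. The latter 2 differ because MTCE.7 had 1.59 ± 0.065 counts for each count of MTCE.33 in wild type and 1.41 ± 0.083 in the mutant (SD, n = 3). In a fit with library totals set to mitochondrial rRNA, where 15.6% of all tested genes were called higher and 14.9% lower, 11 of the 12 protein-coding genes were called higher and CYTB was not.

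**Figure D2:**
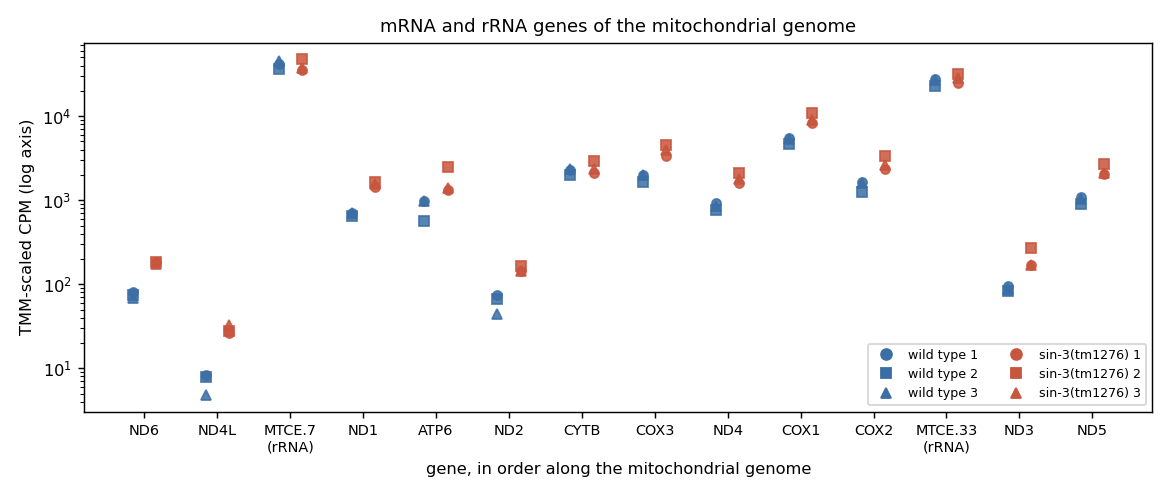
TMM-scaled CPM (log axis) of the 12 protein-coding and 2 rRNA genes in each library, in order along the mitochondrial genome, with wild type in blue and sin-3(tm1276) in red and one symbol per replicate. The protein-coding genes other than CYTB have all mutant points above all wild-type points, and the squares of replicate 2 lie low in wild type and high in the mutant for most genes.

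The 7 genes of complex I, the NADH dehydrogenase that feeds electrons into the chain, were all called higher, beside 31.3% of all genes tested. Their log2 fold changes ran from 1.12 to 2.04, with a median of 1.20. The largest was that of ND4L (WBGene00010958, MtDNA 549 to 783), a small membrane subunit, which had 8.29, 7.83 and 4.82 CPM in wild type and 26, 27.7 and 32.3 CPM in the mutant. Even the lowest mutant library was over the highest wild-type library, with a difference of 2.04 ± 0.18 on the log2 scale (SE, adjusted p = 2.9e-05). Its neighbour ND6 (MtDNA 113 to 549), another membrane subunit, had the tightest groups of the 7 in the mutant. It stood at 81.2, 73.5 and 68.8 CPM in wild type and at 185.5, 183.7 and 176.1 CPM in the mutant, which is a log2 difference of 1.29 ± 0.052 (SE, adjusted p = 9.7e-10).

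Of the other complex I genes, ND1 (MtDNA 1763 to 2635) rose by 1.17 ± 0.051 on the log2 scale (SE), from 690.3 ± 32.5 CPM to 1558 ± 105.6 CPM (SD, n = 3). Its 3 wild-type libraries lay between 652.8 and 709.3 CPM, and its mutant libraries between 1453 and 1664 CPM. The antiporter-like membrane subunits ND2, ND4 and ND5 rose by 1.30 ± 0.22, 1.12 ± 0.14 and 1.18 ± 0.15 on the log2 scale (SE), with adjusted p values of 0.00708, 0.00196 and 0.00209. ND2 (MtDNA 3389 to 4269) was far below its 2 relatives, at 74.0, 66.7 and 43.9 CPM in wild type and 142.3, 166.7 and 143.8 CPM in the mutant, and its call ended when both replicates 2 were left out (adjusted p = 0.0872). ND3 (MtDNA 11356 to 11691) stood at 94.7, 82.5 and 87.3 CPM in wild type and at 167.8, 268.5 and 168.4 CPM in the mutant, with a log2 fold change of 1.20 ± 0.24 (SE, adjusted p = 0.0132). Its mutant replicate 2 was well above the others, and its call ended without wild-type replicate 2 or 3, at adjusted p values of 0.0544 and 0.0538.

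The 3 core subunits of complex IV, the cytochrome c oxidase that passes electrons to oxygen, were all called higher as well, beside 31.3% of all genes tested. Their log2 fold changes ran from 0.85 to 1.1, with a median of 0.89. Whether they rose by less than complex I was not tested. COX1 (WBGene00010964, MtDNA 7827 to 9428), which carries the oxygen-binding site, had the most reads of any mitochondrial message, at 5526, 4672 and 5343 CPM in wild type and 8195, 10768 and 9030 CPM in the mutant. No libraries overlapped, and the log2 fold change was 0.85 ± 0.13 (SE, adjusted p = 0.00428). COX3 (MtDNA 5678 to 6449) stood at 1989, 1648 and 1973 CPM in wild type and at 3366, 4569 and 3948 CPM in the mutant, without overlap, at a log2 fold change of 1.1 ± 0.15 (SE, adjusted p = 0.00324). COX2 (MtDNA 9649 to 10348), the subunit that receives electrons from cytochrome c, had a log2 fold change of 0.89 ± 0.20 (SE, adjusted p = 0.0166). Its libraries were at 1646, 1249 and 1613 CPM in wild type and at 2348, 3377 and 2653 CPM in the mutant. The COX2 call lay near the threshold and ended without wild-type replicate 3 or mutant replicate 3, at adjusted p values of 0.050 and 0.0506.

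CYTB and ATP6 were the protein-coding genes with no call. CYTB (WBGene00000829, MtDNA 4504 to 5621), which encodes the cytochrome b of complex III, was at 2285, 1977 and 2324 CPM in wild type and at 2133, 2914 and 2335 CPM in the mutant. The genotypes overlapped, and the log2 fold change was 0.16 ± 0.15 (SE, adjusted p = 0.386), or -0.060 without both replicates 2. Per 1000 mitochondrial rRNA counts CYTB had 32.8, 33.4 and 32.2 counts in wild type and 35.1, 36.6 and 35.4 in the mutant, a ratio of 1.09, whereas COX3, the next message along the genome, had a ratio of 2.06 on that scale.

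ATP6 (WBGene00010960, MtDNA 2634 to 3235), a membrane subunit of ATP synthase, varied most between libraries of one genotype among the mRNA and rRNA genes, with coefficients of variation of 28.7% in wild type and 36.3% in the mutant. It stood at 967.7, 560.9 and 985.7 CPM in wild type and at 1331, 2461 and 1414 CPM in the mutant. All mutant libraries were above all wild-type libraries, but wild-type replicate 2 was low and mutant replicate 2 high, and the edgeR result was 1.05 ± 0.38 on the log2 scale (SE, adjusted p = 0.0741). The adjusted p was 0.0148 with DESeq2 and 0.0462 with libraries scaled by their totals. With both replicates 2 left out, a choice made after the values were seen, the log2 fold change was 0.48 ± 0.050 (SE, adjusted p = 2.1e-05). That choice leaves 2 libraries in each genotype.

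The libraries numbered 2 lay at opposite ends for most of the genome's RNAs. Mutant replicate 2 was the highest mutant library for 12 of the 14 mRNA and rRNA genes, and wild-type replicate 2 the lowest wild-type library for 11 of 14. Without both, the median log2 fold change of the 12 protein-coding genes was 0.90, and MTCE.7 was called lower at -0.27 ± 0.059 (SE, adjusted p = 0.00328). On the scale of counts per 100 mitochondrial rRNA counts wild-type replicate 2 was the middle library of its genotype at 21.4, and mutant replicate 2 was the highest at 39.2, with the next at 38.4.

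Levels per length gave the messages a wide order in wild type. The quantity compared here is TMM-scaled CPM per kilobase of annotated gene. The rRNAs led at 59170 ± 6556 for MTCE.7 and 27149 ± 2578 for MTCE.33 (SD, n = 3). Among messages COX1 was highest at 3234 ± 280.8, followed by COX3, COX2 and CYTB at 2422 ± 248.9, 2146 ± 314.7 and 1964 ± 170.1. The libraries of COX3 and COX2 overlapped, as did those of COX2 and CYTB. ATP6 came next at 1392 ± 399.1, then ND1 at 790.7 ± 37.2, and then ND4 and ND5, which overlapped, at 647.6 ± 68.8 and 637.8 ± 65.1. The lowest were ND3 at 262.3 ± 18.4, ND6 at 170.4 ± 14.3, ND2 at 69.8 ± 17.8 and ND4L at 29.7 ± 8.0, each below the one before in every library. Thus genes of complex I held the 7 lowest places, although all messages come from one strand.

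In the mutant the order differed in 2 swaps of neighbours. ATP6 stood above CYTB, at 2883 ± 1046 and 2201 ± 362.7 CPM per kilobase, with overlapping libraries, and ND5 stood above ND4 at 1442 ± 217.3 and 1408 ± 190.8 (SD, n = 3), also overlapping. Across the 12 messages the log2 fold change was larger where the wild-type level per kilobase was lower, with a Spearman rho of -0.92 and a Pearson r of -0.78 against the log2 level. Without CYTB these were -0.96 and -0.87, and without ND4L -0.90 and -0.61. The genes share their libraries, and the wild-type values enter both quantities, so these are descriptions of 12 genes and no p is given. In absolute terms the mean gain was 2709 CPM per kilobase for COX3 and 2591 for COX1, but 101.5 for ND2 and 92.3 for ND4L.

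**Figure D3:**
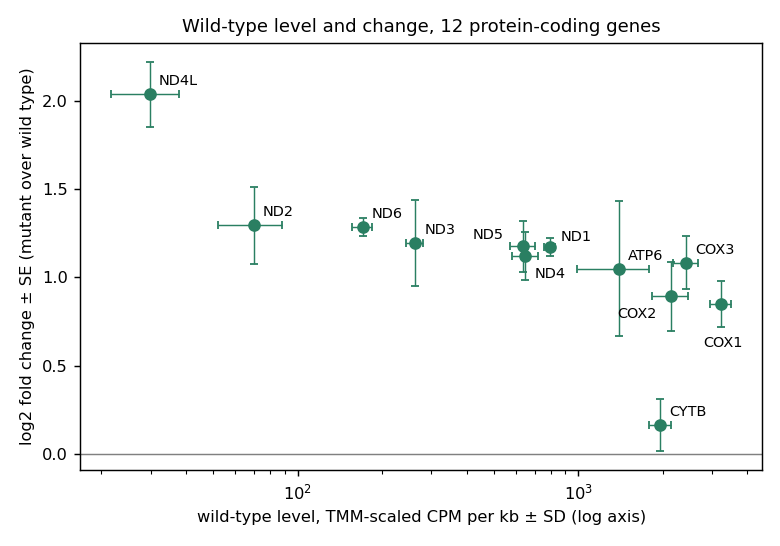
Log2 fold change ± SE against the wild-type level in TMM-scaled CPM per kilobase ± SD (log axis), for the 12 protein-coding genes. ND4L lies top left and CYTB lies below the other messages of similar level.

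Between gene order and log2 fold change Spearman's rho was -0.34 and Pearson's r -0.42 over the 12 messages. Without ND4L both were -0.16, and without CYTB they were -0.39 and -0.57, again as descriptions with no p. Neighbours could differ widely. Going along the strand, ND4L at 2.04 was followed, past 2 tRNA genes, by MTCE.7 at -0.033 and then by ND1 at 1.17. CYTB at 0.16 lay between ND2 at 1.30 and COX3 at 1.1, and MTCE.33 at 0.14 between COX2 at 0.89 and ND3 at 1.20. The low-count tRNA gene MTCE.24, just after COX3, was at 0.22 ± 0.44 (SE).

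**Figure D4:**
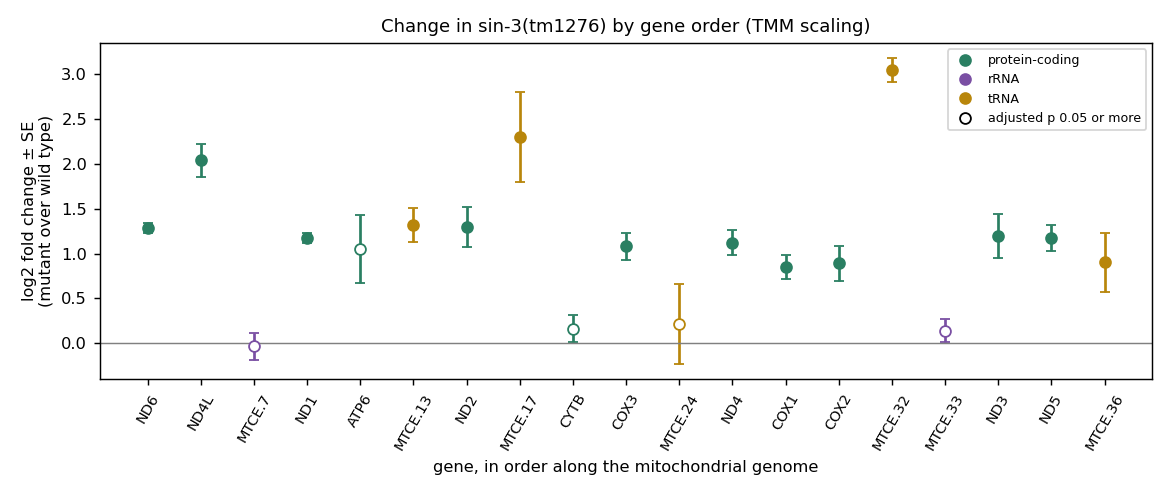
Log2 fold change ± SE (mutant over wild type, TMM scaling) of the 19 tested mitochondrial genes in order along the genome, with colours for gene type and open symbols for an adjusted p of 0.05 or more. The 2 rRNA genes, CYTB and MTCE.24 lie near 0 among neighbours that lie near 1 or higher, and MTCE.32 lies highest at 3.05.

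CYTB made up a smaller part of the message counts in the mutant. Of all counts on the 12 genes, CYTB took 14.8%, 15.6% and 15.5% in wild type and 9.27%, 9.35% and 9.21% in the mutant, with no overlap. COX1 took 36.1% ± 0.73 and 35.3% ± 0.62 and COX2 10.4% ± 0.48 and 10.5% ± 0.32 (SD, n = 3), and both overlapped. COX3 went from 13.0% ± 0.11 to 15% ± 0.53, ND5 from 7.03% ± 0.16 to 8.61% ± 0.30 and ND4 from 5.88% ± 0.23 to 6.93% ± 0.17 (SD, n = 3), none overlapping. Of the 12 genes 9 did not overlap as shares, beside 67.8% of all tested genes in TMM-scaled CPM. Shares of one total are tied, so a smaller share of CYTB raises the summed share of the other genes. In a fit with library totals set to the counts of the 12 genes, CYTB was called lower, at -0.72 ± 0.18 (SE, adjusted p = 1.8e-04), as were both rRNAs. On that scale ND4L, ND6 and ND2 were called higher, at 1.16 ± 0.21, 0.42 ± 0.17 and 0.41 ± 0.17 (SE), and the other 8 messages were not called. The background on that scale is 2.28% of tested genes called higher and 69.4% lower, and the median log2 fold change of all genes moved to -0.84. Each gene is part of its own denominator there.

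**Figure D5:**
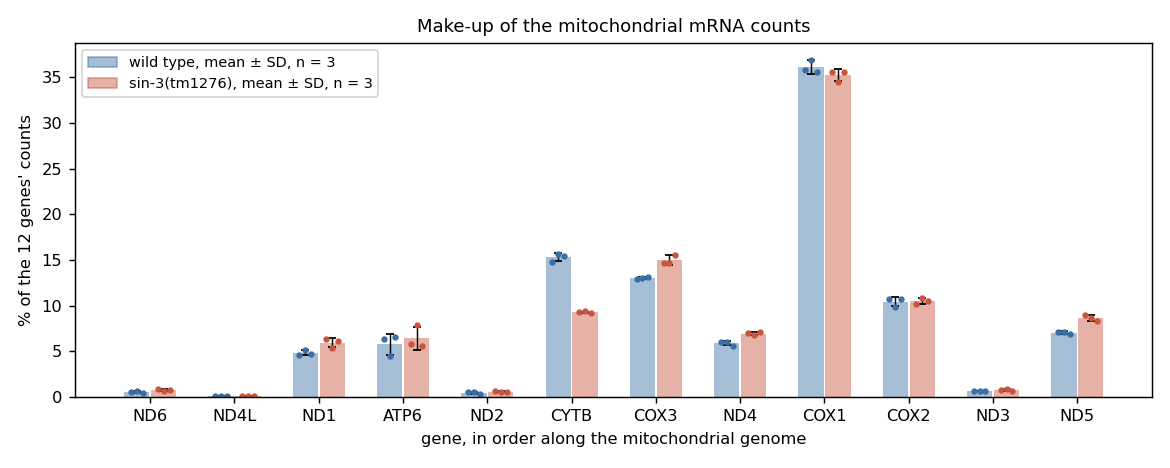
Share of the counts of the 12 protein-coding genes held by each gene (bars, mean ± SD, n = 3; dots, libraries), in order along the genome. CYTB falls from 15.3% in wild type to 9.27% in the mutant, and COX1 is the largest share in both genotypes.

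Transfer RNA genes were barely sampled, and one of them, MTCE.32, had the largest log2 fold change of the 19 mitochondrial genes tested. All 22 tRNA genes together had 251, 155 and 191 counts in wild type and 976, 1350 and 1141 in the mutant. The genes are 52 to 62 bases long and the reads 50, and of the 35 boundaries between neighbouring genes 8 are overlaps and 23 are gaps of at most 2 bases. A read of 50 bases that touches 1 gene only could start at no more than 22 places for each tRNA gene other than MTCE.36, which borders on unannotated sequence. That number holds if reads touching several genes are set apart, as lines of the tables for ambiguous reads imply, though the counting mode is not stated. The genes MTCE.15 and MTCE.27 had no such place at all because a protein-coding gene overlaps them, and both had 0 counts. MTCE.1, MTCE.2, MTCE.6 and MTCE.29 also had 0 counts in every library, which allows up to 0.0979 to 0.122 CPM of gene-assigned counts in a library.

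MTCE.32 (WBGene00014471, MtDNA 10348 to 10401), the tRNA gene between COX2 and the rRNA gene MTCE.33, had 100, 62 and 67 counts in wild type and 694, 858 and 781 in the mutant. In TMM-scaled CPM the mutant libraries stood at 26.6, 26.9 and 27.4 and the wild-type libraries at 4.25, 2.68 and 2.84, a log2 fold change of 3.05 ± 0.13 (SE, adjusted p = 5.7e-10) with no overlap. Only 5 read starts touch this gene alone. Relative to mitochondrial rRNA the ratio was 8.19, and on the scale of the 12 messages the log2 fold change was 2.19 ± 0.23 (SE). MTCE.13 (MtDNA 3244 to 3305), which follows ATP6, had 94, 63 and 90 counts in wild type and 200, 355 and 213 in the mutant, with a log2 fold change of 1.32 ± 0.19 (SE, adjusted p = 5.9e-05).

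The remaining 20 tRNA genes gave 57, 30 and 34 counts in wild type and 82, 137 and 147 in the mutant. Of them MTCE.17, MTCE.24 and MTCE.36 passed the filter on low counts, MTCE.17 only through the mutant libraries, so its difference is in part fixed by the filter. MTCE.24 and MTCE.36 were each over the filter's cutoff of 0.40 CPM in 2 wild-type and 3 mutant libraries. The filter may thus have a part in their differences too. MTCE.17 had 3, 2 and 3 counts against 12, 14 and 24, and MTCE.24 had 17, 4 and 12 against 14, 13 and 20, with log2 fold changes of 2.3 ± 0.50 and 0.22 ± 0.44 (SE). The call of MTCE.36, at 0.90 ± 0.33 (SE, adjusted p = 0.0279), ended in DESeq2 and when wild-type replicate 2 or 3 or mutant replicate 1 or 3 was left out, at adjusted p values of 0.101, 0.0755, 0.125, 0.0640 and 0.0904. The 17 tRNA genes not tested had at most 23 counts in a library.

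Nuclear genes for the same complexes were called in both directions. Of 43 listed nuclear subunits of oxidative phosphorylation 41 were tested, and 19 were higher, 15 lower and 7 not called, beside 31.3% higher and 30.7% lower over all genes, at a median log2 fold change of 0.026, which is close to the 0.028 of all genes. Among complex IV subunits cox-6A and cox-7C, the 2 genes with the smallest p, went from 165.8 ± 7.07 to 274.5 ± 12.1 CPM and from 186.1 ± 8.92 to 110.1 ± 5.93 CPM (SD, n = 3). Scaled by library totals, where 45.4% of all genes were called higher and 19.1% lower, 25 of the list were called higher and 11 lower, and the list's median of 0.19 was that of all genes on this scale. Of 12 genes of mitochondrial membranes and their dynamics 5 were called higher and 6 lower, with a median of -0.11, or 5 and 4 at 0.054 by library totals. Among them the prohibitin gene phb-1 had a log2 fold change of 0.59 ± 0.038 and the adenine nucleotide translocator gene ant-1.1 of -0.43 ± 0.034 (SE).

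Genes that copy, transcribe and translate the mitochondrial genome changed in both directions by modest amounts. Of 13 matched genes 12 were tested, with 7 higher, 4 lower and 1 not called, at a median log2 fold change of 0.20, or 8 higher and 3 lower at 0.36 by library totals. Over all genes 31.3% were called higher and 30.7% lower, or 45.4% and 19.1% by library totals. The elongation factor gene tufm-1 went from 375.0 ± 5.82 to 543.2 ± 14.2 CPM and mtss-1, which encodes the single-stranded DNA-binding protein of mitochondria, from 112.9 ± 0.57 to 156.4 ± 1.03 CPM (SD, n = 3). The following genes are named for their role after their values were seen. The mitochondrial RNA polymerase gene rpom-1 was not called, at 103.6 ± 2.49 and 109.7 ± 4.68 CPM (SD, n = 3), a difference of 0.082 ± 0.040 on the log2 scale (SE, adjusted p = 0.0886). The gene hmg-5, whose product binds mitochondrial DNA as the relative of TFAM, fell by 0.34 on the log2 scale, with an SE of 0.045. The tRNA-processing endonuclease gene hoe-1 fell by 0.36 with an SE of 0.033. In the other direction, polg-1 and tfbm-1 of the same list rose by 0.27 ± 0.051 and 0.36 ± 0.060 on the log2 scale (SE). Their edgeR adjusted p values were 4.4e-04 and 1.2e-04.

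More synthetases that charge mitochondrial tRNAs were called lower than higher. Of 10 matched genes, all tested, 7 were called lower and 2 higher, at a median log2 fold change of -0.31, or 5 lower and 3 higher at -0.15 by library totals. Over all genes 30.7% were called lower and 31.3% higher on the first scale, and 19.1% and 45.4% by library totals. The arginyl and leucyl enzymes rars-2 and lars-2 had the smallest p values. The former went from 78.6 ± 4.69 to 42.1 ± 0.072 CPM and the latter from 100.5 ± 0.98 to 69.1 ± 0.99 CPM (SD, n = 3).

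Of the 12 protein-coding genes, 11 had in the authors' deposited table an adjusted p under 0.05 and a positive log2 fold change, ATP6 among them, and neither rRNA gene did. The share of all genes called in that comparison was not counted. In the DESeq2 fit made here from the same libraries, 2567 of 9787 tested genes were called higher and 2933 lower. The authors' deposited table gives CYTB 0.12 ± 0.12 on the log2 scale (SE, adjusted p = 0.443), and MTCE.32 a value of 2.97 ± 0.27 (SE).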

How the data were processed

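The authors deposited whole-number counts of reads per gene for each library, which are not normalized. Tools named in the submitters' processing notes are DESeq2 1.36.0, HTSeq 0.7.2, STAR 2.7.3a and fastp 0.20.1, while build, annotation, strand setting and counting mode were not stated there. Lines that name no gene, such as those of ambiguous or multiply aligned reads, held 10.4% ± 0.84 of reads in wild type and 8.98% ± 0.24 in the mutant (SD, n = 3), and were left out of totals and tests. A table of the authors' own comparison holds mean normalized signal, log2 fold changes with standard errors, and p-values, per the file headers.

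Of 46934 identifiers 46923 matched the annotation. The names of the 12 protein-coding genes come from RefSeq's table of the same assembly, by position, and rRNA and tRNA genes carry their transcript identifiers. Sequences are not shown. All genes were fitted together in R 4.3.3 with edgeR 4.0.16 (filterByExpr, TMM, robust quasi-likelihood test between genotypes), and p was adjusted by Benjamini-Hochberg over 9787 genes, with a threshold of 0.05. Differences are mutant minus wild type. Single values per library were compared with two-sided exact permutation tests. The floor for 0 counts is 3 counts and covers counting error only. The fit was tested on simulated counts. Libraries of a genotype differed by a chi-square of 12.5 to 18.8 per degree of freedom, so none is a copy. Alternatives were other scalings, filters, DESeq2 1.42.0, the replicate number as a term, and single libraries left out.

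Gene lists, members and the rule for named genes were chosen with earlier results of these data known. The rule took sin-3, each mitochondrial mRNA and rRNA gene, each tested tRNA gene and those with extreme levels, and the 2 genes of each nuclear list with the smallest p. Of the listed nuclear names, pnpt-1, suv-3, mars-2, wars-2 and sthk-1 matched no symbol in the tables used. The muscle, intestine and hypodermis markers held 0 called genes of 5, 4 and 2 tested, and the neuron markers 1 higher and 2 lower of 5, beside 62% called over all genes. Muscle markers summed to 166 to 271 CPM in wild type and 162 to 250 CPM in the mutant. Those of intestine summed to 177 to 472 and 179 to 226 CPM, of hypodermis to 42.7 to 84.2 and 47.7 to 60.7 CPM, and of neurons to 74.7 to 79.0 and 50.5 to 56.4 CPM. Reads of such genes were thus present, and their source was not tested.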

Additional observations from a re-analysis of the deposited data

How the results depend on the processing

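In all, 14 of the 19 mitochondrial genes tested were called higher and 0 lower, beside 31.3% and 30.7% over all genes tested. Among those called higher were 10 protein-coding genes, and also MTCE.17, which passed the filter on low counts only through the mutant. MTCE.36, called higher as well, was over the filter's cutoff in 2 wild-type and 3 mutant libraries. Set on mitochondrial mRNA, 5 mitochondrial genes were higher, 3 of them protein-coding, and 3 lower, beside 2.28% higher and 69.4% lower over all genes. The median of the protein-coding genes was then 0.26 in place of 1.15, and such shifts follow from the choice of denominator. Without both replicates 2, an alternative added after the data were seen, 13 mitochondrial genes were higher and 1 lower, beside 2214 higher and 2671 lower of all 9927 tested. The median was 0.90, and the cause was not tested. The other counts stayed within 1.5 times and the shares kept their direction. Of the genes' own values, signs turned on the mitochondrial mRNA scale for CYTB (-0.72), COX1 (-0.035), MTCE.24 (-0.62) and MTCE.33 (-0.74). Signs also turned without both replicates 2 for CYTB (-0.060), MTCE.24 (-0.00037) and MTCE.33 (-0.047), and for MTCE.7 with library totals (0.13) and among genes of at least 5 CPM (0.034). Leaving out one library gave -0.18 to 0.043 for MTCE.7 and -0.18 to 0.66 for MTCE.24. Replicate numbers gave no sign of pairing the samples. Same-numbered libraries had correlations of -0.25, -0.068 and -0.10 between their deviations, and differently numbered ones of -0.084 to 0.16. Deviations from the mean of only 3 libraries cannot show that pairing is absent. With the replicate block the median was 1.14 and COX2 and ND3 lost their calls (adjusted p = 0.104 and 0.0633). Low counts limit the tRNA genes.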
